A study of Mus musculus with 10 samples.

Results

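AP-1 is a family of transcription factors, and several of their own genes are switched on within minutes of a stimulus. The family examined here was a list of 9 mouse genes, Fos, Fosb, Fosl1, Fosl2, Jun, Junb, Jund, Atf3 and Maff, matched by symbol. For each gene the brightest probe set whose annotation gives that symbol alone was taken, which was available for 8 of the 9 genes among 17712 genes tested. Fosl1 has no such probe set and was not analysed here. All 8 passed the filter on dim probe sets, a mean log2 signal of at least 5.32. Fos, Fosb, Fosl2, Jun, Junb, Atf3 and Maff each have 1 probe set and Jund has 2. On build GRCm38.p6, RefSeq places Fos at chr12:85473890-85477274, Fosb at chr7:19302696-19310118, Fosl2 at chr5:32136472-32157840, Jun at chr4:95049036-95052222, Junb at chr8:84976909-84978748, Jund at chr8:70697739-70700616, Atf3 at chr1:191170296-191183333 and Maff at chr15:79346621-79359078.

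The samples were cells sorted from the cortex of mice aged 8 weeks on an EGFP reporter that astrocytes express, and RNA was read on 10 Affymetrix arrays. Of these, 5 were labelled FMR1-KO and 5 were labelled Control, which are wild type. The promoter that drives the reporter, the strain, the construct behind the knockout and whether an array holds 1 animal or a pool are not stated in the labels. The titles call the replicates biological; the p-values cover the spread among these arrays, whose number limits the precision. The series' stated comparison was Fmr1 knockout against control. The product of Fmr1, FMRP, binds mRNAs and holds back their translation.

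The arrays were first checked against their labels. Fmr1 read 8.22 ± 0.15 on arrays labelled FMR1-KO and 8.04 ± 0.26 on Control arrays (SD, n = 5 each), a difference of 0.19 ± 0.13 (SE) that did not pass the test (limma adjusted p = 0.704), so its signal does not mark the knockout and the groups are called by their labels. Xist, an RNA made in female cells, read above 10 on Control arrays 2 and 3 alone. All 22 astrocyte markers were measured. Of 30 markers of microglia, the resident macrophages of brain tissue, 29 were measured. Cx3cr1, a chemokine receptor gene among these markers, read 10.64, 10.10, 11.53, 11.46 and 11.44 on FMR1-KO arrays 1 to 5, and 10.95, 11.51, 11.87, 11.70 and 11.65 on Control arrays 1 to 5, where array medians over all probe sets were 6.11 to 6.24. Averaged over the 29 markers, the log2 signal was 9.67, 9.10, 10.49, 10.50 and 10.25 on FMR1-KO arrays 1 to 5, and 9.80, 10.63, 10.84, 10.73 and 10.80 on Control arrays 1 to 5. FMR1-KO arrays 1 and 2 and Control array 1 therefore stood apart at the low end, with a gap of 0.45 to the next array. Their own spacing was uneven, with a larger gap of 0.57 between FMR1-KO arrays 2 and 1. These 3 arrays had scores of 16.3 to 45.2 on principal component 1 of all genes, where the other 7 had scores below 0. In bulk samples, fewer cells of a type and less RNA per cell cannot be told apart.

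AP-1 acts as a dimer. Fos proteins pair with Jun proteins through a leucine zipper and bind the sequence TGANTCA, while Atf3 and the small Maf protein Maff carry related zippers and pair with some of the same partners. Fos, Fosb, Jun, Junb and Atf3 are immediate early genes, transcribed without new protein synthesis after growth factors, calcium entry or injury, and enzymatic dissociation of brain tissue is known to induce them. Microglia and astrocytes can both express them.

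The promoters of Fos, Jun and Atf3 are shown because these genes shared their lowest arrays and each holds a known type of control element within the window from 250 bases before the annotated start to 50 bases after it. The sequences are from RefSeq on build GRCm38.p6, where all 8 measured genes matched by symbol, and capitals mark motif matches on either strand. In Fos and Atf3 the capitals mark TGACGT, a shortened cyclic AMP response element. The capitals in Jun mark TGACATCA, a variant AP-1 site, and the capitals nearer the start of Fos mark the TATA box motif TATAAA.
Fos chr12:85473640-85473939 plus strand: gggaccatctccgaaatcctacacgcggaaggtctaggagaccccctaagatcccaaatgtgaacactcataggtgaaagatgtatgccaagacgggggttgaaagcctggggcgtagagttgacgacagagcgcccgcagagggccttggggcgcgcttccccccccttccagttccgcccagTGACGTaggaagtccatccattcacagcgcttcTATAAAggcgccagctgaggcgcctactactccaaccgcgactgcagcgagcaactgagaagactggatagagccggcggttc
Jun chr4:95052173-95052472 minus strand: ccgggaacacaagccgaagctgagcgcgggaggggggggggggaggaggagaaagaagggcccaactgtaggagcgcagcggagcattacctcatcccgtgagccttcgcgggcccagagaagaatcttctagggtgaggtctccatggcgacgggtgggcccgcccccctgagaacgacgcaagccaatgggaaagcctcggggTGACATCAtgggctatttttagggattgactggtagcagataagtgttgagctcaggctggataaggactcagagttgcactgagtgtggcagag
Atf3 chr1:191183284-191183583 minus strand: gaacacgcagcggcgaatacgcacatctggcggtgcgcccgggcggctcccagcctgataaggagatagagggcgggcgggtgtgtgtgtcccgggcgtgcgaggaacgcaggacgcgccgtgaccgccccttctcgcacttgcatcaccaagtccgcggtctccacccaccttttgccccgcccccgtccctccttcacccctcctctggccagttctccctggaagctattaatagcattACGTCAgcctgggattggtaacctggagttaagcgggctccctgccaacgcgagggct

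The motif TGACGT or its complement was found in windows of 3 of the 8 genes, Atf3, Fos and Maff, and in 7.51% of all 32851 promoter windows. TGACATCA was found in Jun and Maff and in 3.62% of all windows. The full element TGACGTCA, which contains TGACGT, was found in Maff and in 1.79% of all windows, and TATAAA in Fos and Junb and in 13.6% of all windows. The motif TGANTCA was in none of the 8 genes' windows and in 7.81% of all windows, which says only that these letters are not in the windows. Maff has 3 annotated windows and each other gene has 1.

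Fos encodes the founding partner of Jun in the AP-1 dimer. Its log2 signal was 9.44, 8.75, 10.00, 10.13 and 10.17 on FMR1-KO arrays 1 to 5, and 9.45, 10.14, 10.30, 11.02 and 10.93 on Control arrays 1 to 5. FMR1-KO array 2 was lowest, Control arrays 4 and 5 were highest, and the groups overlapped. Fos averaged 9.70 ± 0.61 on FMR1-KO arrays and 10.4 ± 0.64 on Control arrays (SD, n = 5 each). All 5 FMR1-KO arrays were below the Control mean, but the difference of -0.67 ± 0.33 (SE; 95% interval -1.38 to 0.04) missed the threshold (limma adjusted p = 0.657, by Benjamini-Hochberg over all genes). On a linear scale this is 0.628 times the Control signal, with an interval of 0.383 to 1.03.

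Fosb encodes a Fos relative that is known in brain for a long-lived truncated form. It read 8.02, 6.86, 8.57, 8.90 and 8.84 on FMR1-KO arrays 1 to 5, and 8.15, 8.33, 8.65, 9.81 and 9.46 on Control arrays 1 to 5. The order resembled that of Fos, with FMR1-KO array 2 lowest and Control arrays 4 and 5 highest. Between the lowest and the highest array the signal differed 7.73-fold. The group difference of -0.64 ± 0.41 (SE) did not pass the test (limma adjusted p = 0.699).

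Fosl2 encodes Fra-2, a Fos relative that is usually induced later than Fos. It read 6.94, 6.88, 7.09, 7.21 and 6.95 on FMR1-KO arrays 1 to 5, and 7.22, 7.24, 7.23, 7.05 and 7.50 on Control arrays 1 to 5. All FMR1-KO arrays lay below the Control mean, and Control array 4 lay within their range. The difference was -0.23 ± 0.10 (SE; 95% interval -0.45 to -0.02) with an unadjusted p of 0.0367, and it did not pass after adjustment (limma adjusted p = 0.654). In this fit, Fosl2 was the only one of the 8 genes with an unadjusted p under 0.05. Of all genes tested, 7.53% had one and 3.53% had one with a lower mean on FMR1-KO arrays. It did not share the array order of Fos: Control array 1 was not among its low arrays.

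Jun encodes the partner that can also bind DNA as a homodimer. Its log2 signal was 10.84, 10.10, 11.97, 12.01 and 12.01 on FMR1-KO arrays 1 to 5, and 10.84, 11.40, 11.96, 12.31 and 12.23 on Control arrays 1 to 5. FMR1-KO arrays 3 to 5 lay above the Control mean, while FMR1-KO arrays 1 and 2 lay below every Control array, array 1 by less than 0.01. The difference was -0.36 ± 0.40 (SE; 95% interval -1.22 to 0.50; limma adjusted p = 0.825).

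Junb and Jund encode the other Jun proteins; Junb is inducible and often opposes Jun, and Jund is present in most resting cells. Junb read 8.49, 7.71, 9.35, 9.49 and 9.57 on FMR1-KO arrays 1 to 5, and 8.98, 9.81, 9.61, 10.17 and 9.73 on Control arrays 1 to 5. FMR1-KO arrays 3 to 5 lay above Control array 1 and below the other 4 Control arrays. Junb had the largest mean difference of the 8 genes, -0.74 ± 0.34 (SE; 95% interval -1.47 to 0.00017), with all 5 FMR1-KO arrays below the Control mean, and it did not pass the test (unadjusted p = 0.05005, limma adjusted p = 0.654).

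Jund read 9.37, 8.80, 10.35, 10.38 and 10.47 on FMR1-KO arrays 1 to 5, and 9.39, 10.39, 10.44, 10.61 and 10.46 on Control arrays 1 to 5. On the 7 arrays other than FMR1-KO 1 and 2 and Control 1 it spanned only 0.26, and the highest of those 3 arrays lay 0.96 below the lowest of the 7. The difference was -0.38 ± 0.33 (SE; limma adjusted p = 0.765). The other Jund probe set did not show this order: it read 7.73, 7.75, 7.58, 7.82 and 8.14 on FMR1-KO arrays and 6.94, 9.43, 7.98, 7.60 and 7.73 on Control arrays, with its highest value on Control array 2. Its difference was -0.13 ± 0.35 (SE; limma adjusted p = 0.941 over 18765 probe sets), so the 2 probe sets disagree about single arrays.

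Atf3 encodes a stress-induced factor that can repress or activate with Jun partners. It read 8.998, 7.81, 10.32, 10.63 and 10.51 on FMR1-KO arrays 1 to 5, and 9.44, 10.05, 10.57, 10.64 and 10.59 on Control arrays 1 to 5. FMR1-KO array 2 lay 1.63 below Control array 1, and FMR1-KO arrays 3 to 5 lay above the Control mean. The difference was -0.60 ± 0.49 (SE; 95% interval -1.67 to 0.46; limma adjusted p = 0.752).

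Maff encodes a small Maf protein without an activation domain. It read 5.97, 6.01, 6.03, 6.25 and 6.17 on FMR1-KO arrays 1 to 5, and 5.87, 6.07, 6.07, 5.97 and 6.24 on Control arrays 1 to 5. Its range over all arrays was 0.39 on the log2 scale and the groups lay on top of each other, with a difference of 0.04 ± 0.09 (SE; 95% interval -0.16 to 0.25; limma adjusted p = 0.922).

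**Figure D1:**
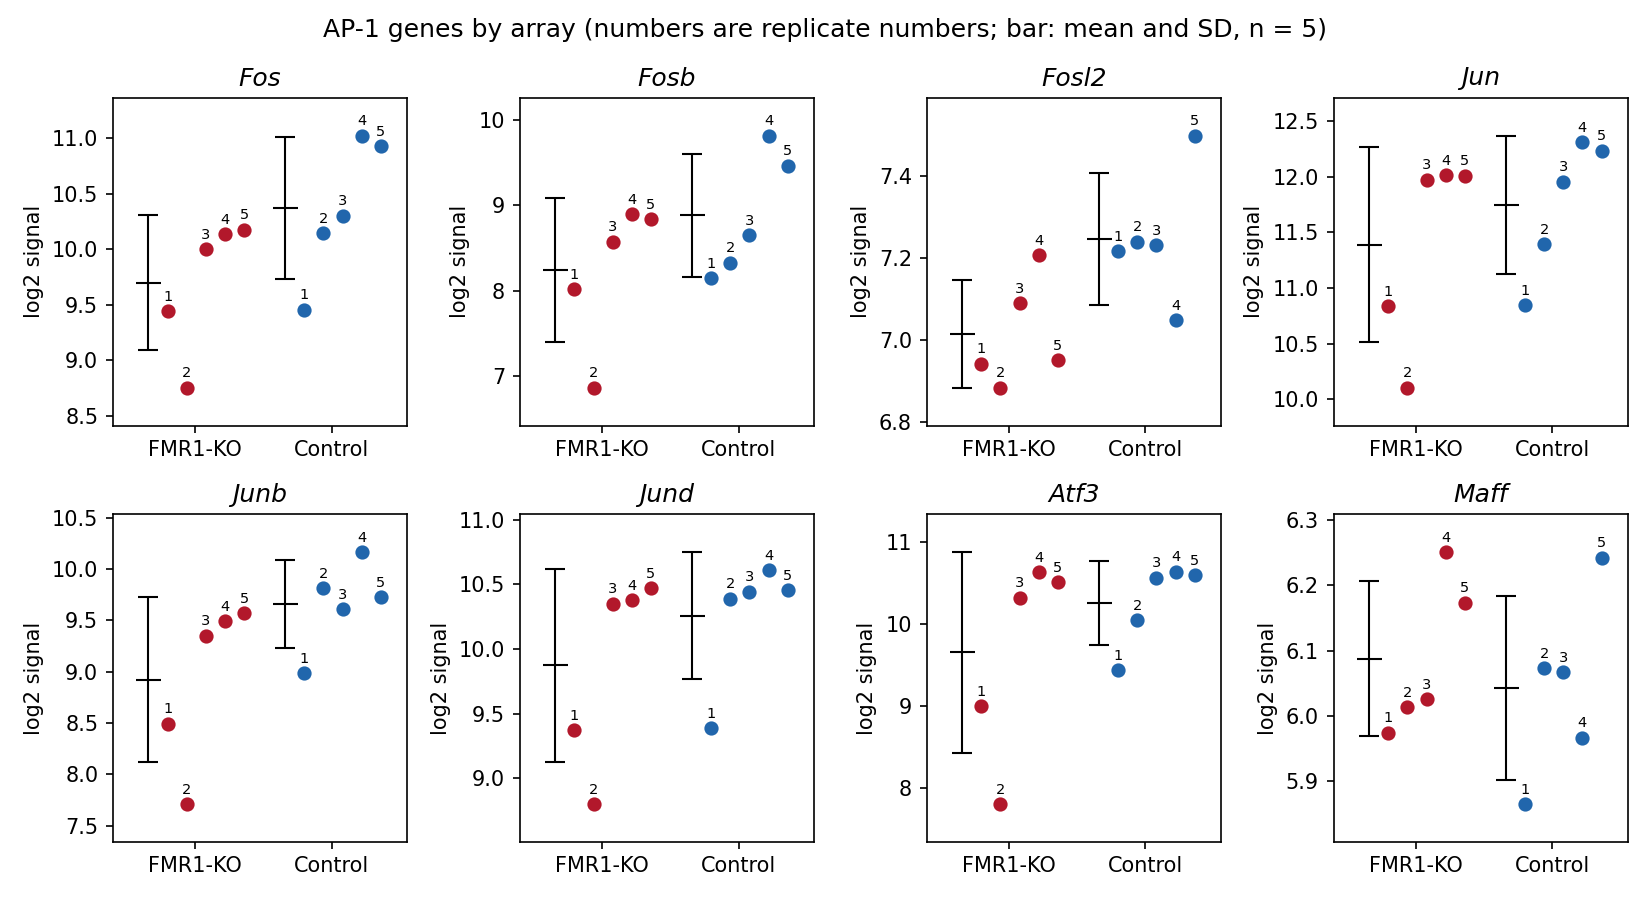
Log2 signal of each AP-1 gene on the arrays labelled FMR1-KO (red, left) and Control (blue, right), with replicate numbers above the points and the mean and SD (n = 5) as bars. FMR1-KO arrays 1 and 2 and Control array 1 lie lowest for Fos, Fosb, Jun, Junb, Jund and Atf3, and the groups overlap for all 8 genes.

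In all, 7 of the 8 genes had a lower mean on FMR1-KO arrays and Maff had a higher one, where 53.2% of all genes tested had a lower mean. The median difference of the 8 genes was -0.49, and that of all genes tested was -0.01. None of the 8 passed the adjusted threshold, and none of all 17712 genes did, so percent called was 0 (limma; 1334 genes had an unadjusted p under 0.05). The groups did not overlap for 0.965% of genes, 0.536% with FMR1-KO arrays the lower, and none of the 8 was among them.

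The genes split into those that varied widely among arrays and those that did not. Within groups, the residual SD was 0.62 for Fos, 0.79 for Fosb, 0.76 for Jun, 0.64 for Junb, 0.63 for Jund and 0.94 for Atf3, and each lay above the 99th percentile of all genes tested. Fosl2, at 0.15, lay at the 31.95 percentile and Maff, at 0.13, at the 22.2 percentile. The mean log2 signal of Maff, 6.065, was below the array medians of 6.11 to 6.24, so its small spread cannot be read as steady expression. The widely varying genes are thus those whose differences carry the largest errors. Over all 10 arrays, the highest signal exceeded the lowest 4.83-fold for Fos, 4.61-fold for Jun, 5.48-fold for Junb, 3.50-fold for Jund and 7.12-fold for Atf3, against 1.53-fold for Fosl2 and 1.31-fold for Maff.

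The same 3 arrays were the lowest for 6 of the 8 genes. FMR1-KO array 2, FMR1-KO array 1 and Control array 1 came lowest, in that order, for Fos, Fosb, Jun, Junb, Jund and Atf3. Microglia markers were also lowest on these 3 arrays, and over all genes tested they were the 3 lowest for 7.24%. They were the 3 lowest for 28 of 29 microglia markers, a share that follows largely from choosing the arrays by the mean of these markers. They were the 3 highest for 22 of 22 astrocyte markers, among them the glutamate transporter Slc1a2. Slc1a2 read 11.85, 11.73, 11.32, 11.32 and 11.38 on FMR1-KO arrays 1 to 5 and 11.68, 10.74, 10.96, 11.18 and 10.71 on Control arrays 1 to 5, so the arrays lowest in Fos and Jun were the highest in Slc1a2.

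**Figure D2:**
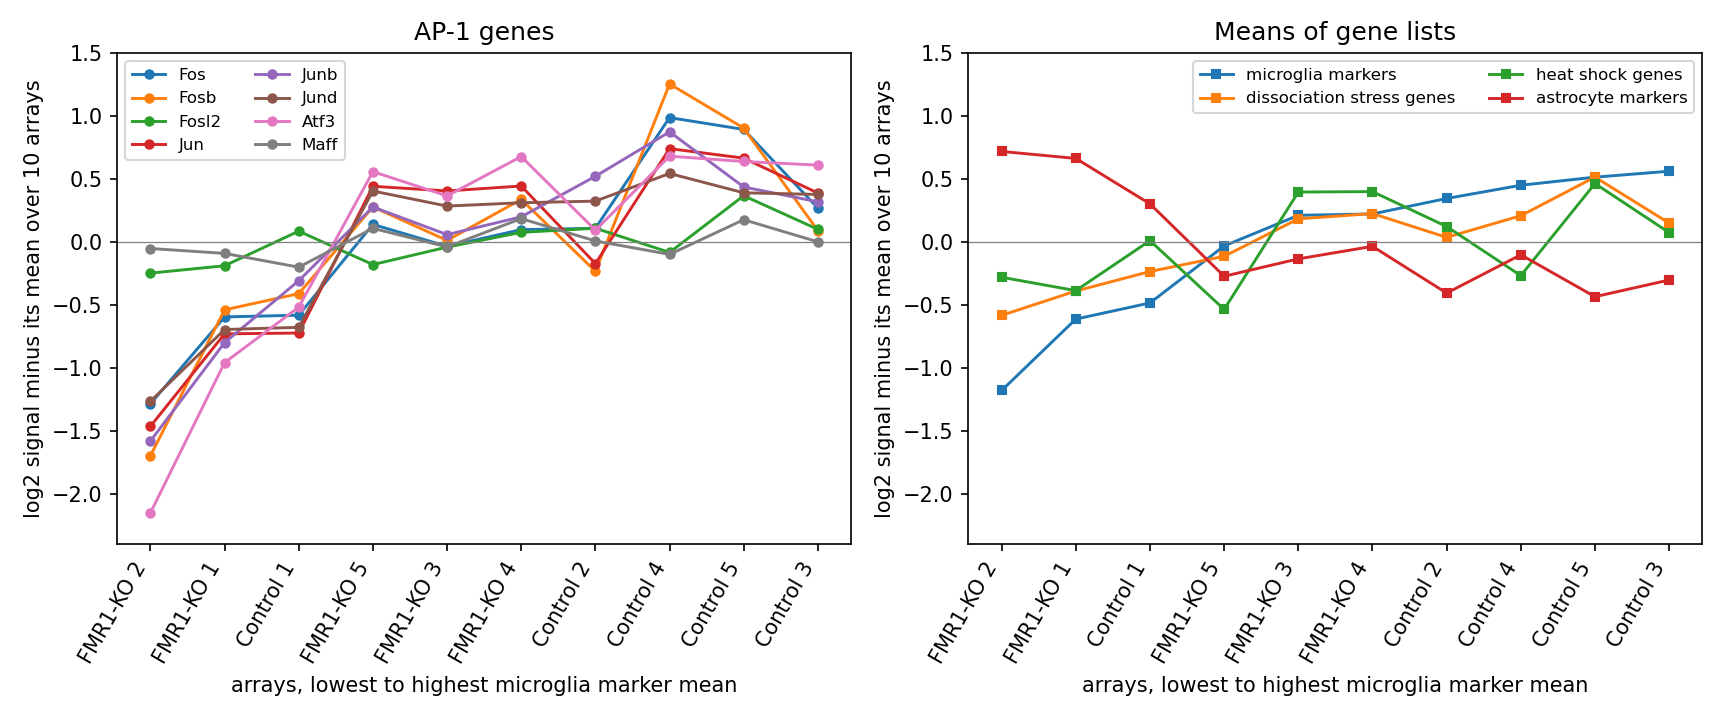
Log2 signal minus its mean over the 10 arrays for each AP-1 gene (left) and for the means of 4 gene lists (right), with the arrays ordered from the lowest to the highest microglia marker mean. Fos, Fosb, Jun, Junb, Jund and Atf3 are low on the first 3 arrays together with the microglia markers, the astrocyte markers are high there, and Fosl2, Maff and the heat shock genes do not follow that order.

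The FMR1-KO group held 2 of these 3 arrays and the Control group held 1. Without the 3 arrays the difference was -0.50 ± 0.19 (SE) for Fos and -0.36 ± 0.13 for Junb, with adjusted p of 0.452 and 0.428 in limma. It was -0.29 ± 0.28 for Fosb, -0.08 ± 0.10 for Jund, 0.02 ± 0.18 for Jun and 0.03 ± 0.15 for Atf3, so that the signs for Jun and Atf3 turned. With a covariate for the mean of the microglia markers, Fos differed by -0.09 ± 0.18 (SE), Junb by -0.11 ± 0.16, Fosb by 0.03 ± 0.27, Jund by 0.26 ± 0.12, Atf3 by 0.33 ± 0.19 and Jun by 0.39 ± 0.16, none past the threshold (limma adjusted p = 0.9999 for each). Fosl2 differed by -0.16 ± 0.11 with the covariate and -0.17 ± 0.12 without the 3 arrays, and Maff by 0.13 ± 0.10 with the covariate and 0.06 ± 0.11 without the 3 arrays. The part of microglial signal in the AP-1 differences was not tested beyond these values.

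**Figure D3:**
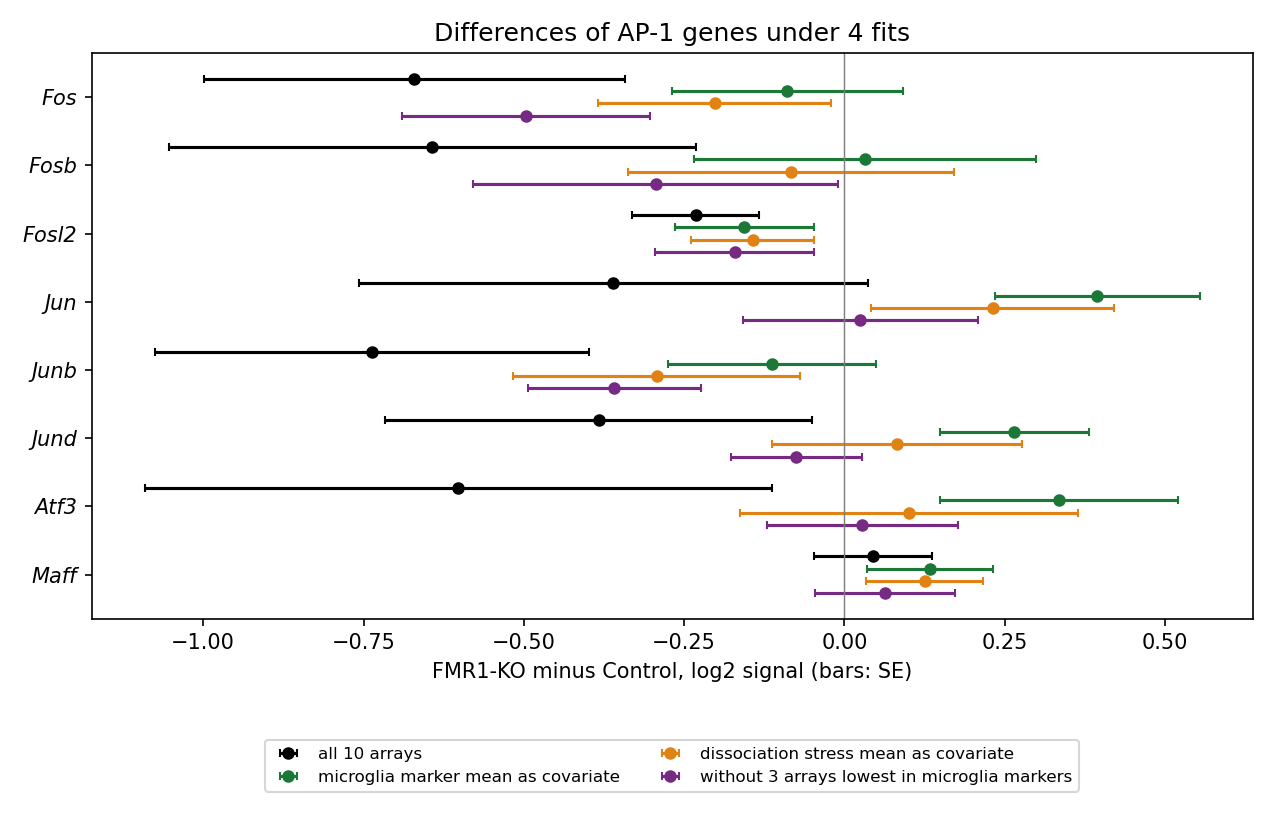
Difference of each AP-1 gene, FMR1-KO minus Control in log2 signal with its SE, in the fit of all 10 arrays, with the microglia marker mean or the mean of the dissociation stress genes as a covariate, and without the 3 arrays lowest in microglia markers. Jun and Atf3 lie below 0 in the fit of all 10 arrays and above 0 in the other 3 fits, by less than their SE without the 3 arrays. Fos, Junb and Fosl2 lie below 0 in all 4.

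Since those 3 arrays stood apart, no correlation over all 10 arrays was tested. The microglia mean ran from 9.10 to 10.84 over the 10 arrays but only from 10.25 to 10.84 over the other 7. A relation with it could therefore be missed, and failing the test does not show that there is none. Over the other 7 arrays, 19 of 24 relations of the 8 genes with the means of the microglia, astrocyte and dissociation stress lists were positive, and none passed (exact permutation test over 5040 pairings, two-sided, adjusted over the 24; smallest adjusted p = 0.882 for Pearson's r and 0.556 for Spearman's rho). The relations with the astrocyte mean took both signs, with r from -0.55 for Fosl2 to 0.40 for Atf3. With the microglia mean, r was 0.59 for Fos (rho 0.64; exact p = 0.185 and 0.139) and 0.16 for Jun (rho 0.07; exact p = 0.736 and 0.906). Without the 2 arrays farthest from the median of the microglia mean, these r were 0.91 and 0.38. With each group's mean subtracted, they were 0.09 for Fos and 0.39 for Jun over the 7 arrays (exact permutation p = 0.861 and 0.410 over 144 pairings within groups). The highest r with the microglia mean was 0.67, for Fosl2 (rho 0.64, exact p = 0.0988 and 0.139). Fosl2 also had the largest r of the 24, 0.79 with the dissociation stress mean (rho 0.39, exact p = 0.0474 and 0.396, adjusted 0.882 for r). This r was -0.55 without the 2 arrays farthest from the median of the stress mean.

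Among pairs of the 8 genes over the same 7 arrays, 22 of 28 correlations were positive and none passed (exact permutation test, two-sided, adjusted over the 28 pairs; smallest adjusted p = 0.106 for r and 0.0778 for rho). The highest r was 0.92, between Fos and Fosb, with an rho of 0.68 (exact p = 0.0151 and 0.110; adjusted 0.106 and 0.438), and it was 0.14 without the 2 arrays farthest from the Fos median, so it rests on Control arrays 4 and 5. Jun and Fosb had an r of 0.85 and an rho of 0.96 (exact p = 0.0107 and 0.0028; adjusted 0.106 and 0.0778), with an r of 0.85 without the 2 arrays farthest from the Fosb median. Pairs share arrays and RNA and are not independent of each other.

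The genes most like Fos, Jun and Atf3 over the 10 arrays were found by Pearson's r among all genes tested, with no p since they were chosen for r. For Fos these were Slc6a6, which encodes the taurine transporter, Btg2, an antiproliferative early gene, Prr14l, Npnt, which encodes a matrix protein, and Sh2b2, an adaptor gene, with r of 0.97 to 0.98. Over the 7 arrays alone these r were 0.92 to 0.96. For Jun they were Capns2, Asb2, Lyl1, Cttnbp2nl and Rubcnl, with r of 0.98 to 0.99 and of 0.87 to 0.97 over the 7 arrays; Lyl1 encodes a transcription factor of blood cell development. For Atf3 they were Zfp36, which encodes a protein that speeds decay of AU-rich mRNAs, Plek, Cttnbp2nl, Mylip and Sp110, with r of 0.98 to 0.99, and r of 0.56 to 0.90 over the 7 arrays. Zfp36 read 10.38, 9.35, 11.19, 11.37 and 11.51 on FMR1-KO arrays 1 to 5 and 10.47, 11.25, 11.46, 11.65 and 11.48 on Control arrays 1 to 5.

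Dissociation stress genes other than AP-1 are other early response and heat shock genes induced when tissue is digested into single cells. Of 40 listed, 37 were measured, and 32 had a lower and 5 a higher mean on FMR1-KO arrays, with a median difference of -0.30 and none past the threshold. The list mean was 8.00, 7.80, 8.57, 8.61 and 8.27 on FMR1-KO arrays 1 to 5, and 8.15, 8.42, 8.53, 8.59 and 8.90 on Control arrays 1 to 5. Its low arrays were again FMR1-KO 1 and 2 and Control 1. The smallest unadjusted p belonged to Ier3, an early gene of cell survival, at -0.56 ± 0.22 (SE), Mcl1, which blocks apoptosis, at -0.52 ± 0.21, Klf6 at -0.49 ± 0.23 and Klf4 at -0.37 ± 0.17 (limma adjusted p = 0.654 to 0.655).

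The early response and heat shock genes of that list did not share one order. The 3 arrays were the lowest for 16 of its 37 genes and for 0 of the 10 measured heat shock genes. Over all genes tested they were the lowest for 7.24%, so the count for heat shock genes is near that share. Hspa1b, which encodes an inducible Hsp70, read 7.42, 8.22, 10.14, 10.31 and 7.70 on FMR1-KO arrays 1 to 5 and 8.74, 10.18, 9.83, 7.47 and 10.26 on Control arrays 1 to 5. It was lowest on FMR1-KO array 1, and also low on Control array 4, where Fos, Fosb and Jun were highest, and on FMR1-KO array 5. FMR1-KO array 2 and Control array 1, at 8.22 and 8.74, came next. Of the 10 heat shock genes 7 had a lower and 3 a higher mean, with a median of -0.12, and Hsp90aa1 differed by -0.17 ± 0.13 (SE), Hspa5 by -0.18 ± 0.14 and Dnajb1 by -0.17 ± 0.20. With the mean of the 37 stress genes as a covariate, Fos differed by -0.20 ± 0.18 (SE), Fosb by -0.08 ± 0.25, Fosl2 by -0.14 ± 0.10, Junb by -0.29 ± 0.22, Jund by 0.08 ± 0.20, Atf3 by 0.10 ± 0.26, Jun by 0.23 ± 0.19 and Maff by 0.13 ± 0.09, none past the threshold. The part of dissociation stress in the AP-1 levels was not tested beyond these values.

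Genes that microglia switch on when handled outside the brain followed the AP-1 array order in part. Of 14 measured, 12 had a lower and 2 a higher mean on FMR1-KO arrays, with a median difference of -0.47 and none past the threshold. The 3 arrays were the lowest for 10 of the 14. Rgs1, a regulator of G-protein signalling in immune cells, read 6.75, 6.07, 7.59, 7.81 and 7.05 on FMR1-KO arrays 1 to 5 and 6.97, 7.70, 8.22, 7.80 and 9.04 on Control arrays 1 to 5, a difference of -0.89 ± 0.38 (SE). Icam1 differed by -0.47 ± 0.20, Cd83 by -0.67 ± 0.34 and the cytokine gene Tnf by -0.42 ± 0.20 (limma adjusted p = 0.654 to 0.662).

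**Figure D4:**
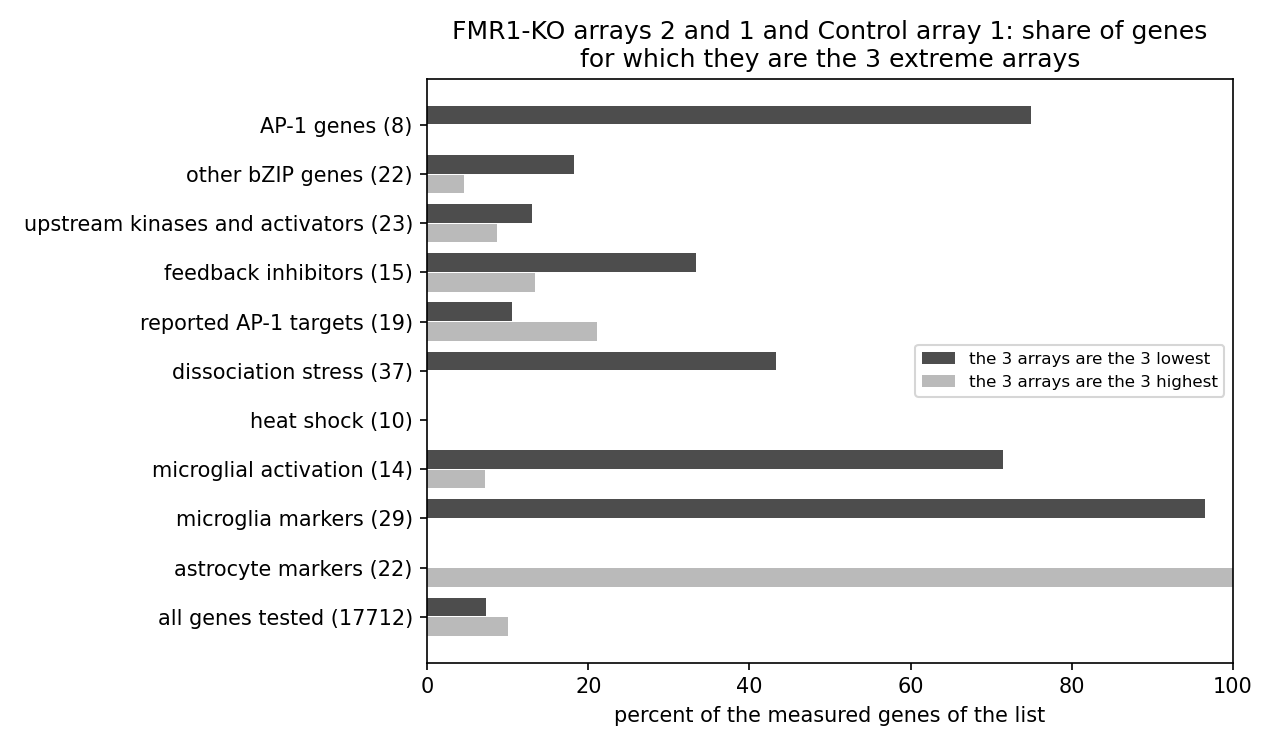
For each gene list, with the number of measured genes in brackets, the percent of genes for which FMR1-KO arrays 2 and 1 and Control array 1 are the 3 lowest (dark) or the 3 highest (light) of the 10 arrays. The share that is lowest is 75% for AP-1 genes, 96.6% for microglia markers, 71.4% for microglial activation genes, 43.2% for dissociation stress genes, 0% for heat shock genes and 7.24% for all genes tested; the arrays were chosen by the microglia markers.

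The 3 arrays were the lowest for 18.2% of other basic leucine zipper genes, 13% of upstream kinases and activators and 33.3% of feedback inhibitors, where they were the lowest for 7.24% of all genes tested. Of 22 measured genes for other basic leucine zipper proteins, 16 had a lower and 6 a higher mean, with a median of -0.08. Atf4, the effector of the integrated stress response, read 8.48, 8.48, 8.67, 8.67 and 8.68 on FMR1-KO arrays 1 to 5 and 8.63, 9.04, 8.80, 9.22 and 9.07 on Control arrays 1 to 5. Control array 1 lay within the FMR1-KO range and the other 4 Control arrays lay above it, with a difference of -0.36 ± 0.11 (SE; unadjusted p = 0.00828). Bach2, a repressor that pairs with small Maf proteins, differed by 0.27 ± 0.08, the myeloid factor gene Cebpa by -0.63 ± 0.28 and Creb1, which binds the cyclic AMP response element, by -0.27 ± 0.13 (limma adjusted p = 0.654 to 0.655).

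Among 23 measured kinases and activators upstream of AP-1, 15 had a lower and 8 a higher mean, with a median of -0.06. The kinase gene Rps6ka3 differed by -0.34 ± 0.12 (SE), Elk1, a cofactor of SRF at the Fos promoter, by 0.38 ± 0.14, and Mapk10, a JNK gene, by 0.60 ± 0.25. Of 15 phosphatases and other feedback inhibitors, 13 had a lower and 2 a higher mean, with a median of -0.20. In that list Zfp36l1 differed by -0.29 ± 0.13, Dusp7 by -0.57 ± 0.25, Spry1 by -0.21 ± 0.12 and Zfp36l2 by -0.20 ± 0.11. None of these genes passed (limma adjusted p = 0.654 to 0.676).

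Reported AP-1 targets did not share one direction. Of 24 listed, 19 were measured, 10 with a lower and 9 with a higher mean, and the median difference was -0.09. The matrix metalloproteinase gene Mmp14 differed by 0.43 ± 0.15 (SE), the cyclin gene Ccnd1 by -0.39 ± 0.16 and the heme oxygenase gene Hmox1 by -0.32 ± 0.14, none past the threshold (limma adjusted p = 0.654). The 3 arrays low in Fos and Jun were the lowest for 2 of the 19 targets, or 10.5%, against 7.24% of all genes tested. They were the highest for 4, or 21.1%, against 10% of all genes tested. With so few targets, these counts do not set the list apart. Mmp12, Mmp13, Timp1 and Il6 were below the dim cutoff of 5.32, and Mmp3, at 5.35 to 5.69 over the arrays, lay close to it.

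For markers of cells other than microglia and astrocytes, the 3 arrays were the lowest for 0 of 9 neuronal, 0 of 10 oligodendrocyte lineage, 0 of 8 pericyte and smooth muscle, 0 of 6 choroid plexus and ependyma, 0 of 3 blood cell and 1 of 8 endothelial markers, shares to be read against 7.24% of all genes tested. They were the highest for 1 of 10 oligodendrocyte lineage and 1 of 8 pericyte and smooth muscle markers, where they were the highest for 10% of all genes tested. The endothelial list mean ran from 6.38 to 6.48 on FMR1-KO arrays and from 6.44 to 6.86 on Control arrays, with 7 of 8 markers lower in mean, and the receptor gene Flt1 differed by -0.45 ± 0.13 (SE; limma adjusted p = 0.654). All 29 measured microglia markers had a lower mean on FMR1-KO arrays, with a median of -0.54, and all 22 astrocyte markers a higher one, with a median of 0.40.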

How the data were processed

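The deposited values are log2 signal levels per probe set from 10 Affymetrix arrays, 1 table for the series. Per the labels' protocols, the RNA was turned into amplified, biotinylated cDNA with Affymetrix kits; the design text names GeneSpring 13.1.1 for the comparison. How background was corrected and probe sets were normalized and summarised is not given in the sources used here. Values between 4.32 and 13.9, with array medians of 6.11 to 6.24, show the log2 scale. The platform annotation pairs 23521 of 33793 probe sets with a single gene symbol, and these were used. The brightest probe set of each gene was taken, and genes below the 25th percentile of all probe set means (5.32) were left out, leaving 17712. Groups came from the sample titles. Differences, FMR1-KO minus Control, were fitted with limma 3.58.1 (lmFit, eBayes; R 4.3.3). Two-sided p-values were adjusted by Benjamini-Hochberg across the 17712 genes and read at 0.05. Correlations were taken over 7 arrays instead of the planned 10, since 3 arrays stood apart, with exact permutation tests. On simulated data of the 17712 genes with independent noise, the test recovered 24 of 50 genes changed 1.5-fold, 45 of 50 changed 2-fold and 50 of 50 changed 3-fold, and called 9 of 17512 unchanged genes. The changed genes were drawn at random from all genes tested. Fos, Fosb, Jun, Junb, Jund and Atf3, with residual SDs of 0.62 to 0.94, vary far more than most, so these rates do not apply to them. The members and lists were chosen with earlier results of these data known. Named are the 8 measured genes, Fmr1, up to 4 genes per list with the smallest p, and the 5 genes most like Fos, Jun and Atf3; other genes with values are named as markers. Predicted and small RNA genes and olfactory or vomeronasal receptors were not named by likeness.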

Additional observations from a re-analysis of the deposited data

Results flagged for a closer look

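In groups of 5 arrays, a value was picked out where its gap to the nearest other array, divided by the group's range, exceeded Dixon's 95% critical value of 0.71. Of 50 groups of values examined, 3 had such an array, and chance picks out about 1 in 20. Jund read 9.39 on Control array 1, against 10.4 to 10.6 on the other Control arrays. The mean of the microglia markers was 9.80 on that array, against 10.6 to 10.8 on the other Control arrays. The mean of the reported AP-1 targets was 7.37 on FMR1-KO array 1, against 7.17 to 7.20 on the other FMR1-KO arrays.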

How the results depend on the processing

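Each AP-1 difference was recomputed under 22 alternatives (21 for Maff, which the filter at the median removed), and none passed the adjusted threshold in any of them (lowest limma adjusted p = 0.245, for Fos). Fos, Fosl2, Junb and Maff kept their sign in all of them. With a covariate for the microglia marker mean, the sign turned for Fosb (0.033), Jun (0.39), Jund (0.26) and Atf3 (0.33). With the dissociation stress mean as a covariate it turned for Jun (0.23), Jund (0.082) and Atf3 (0.10), and without the 3 arrays lowest in microglia markers for Jun (0.025) and Atf3 (0.028). Leaving out each array in turn, the differences ran from -0.90 to -0.43 for Fos, -0.83 to -0.30 for Fosb, -0.28 to -0.17 for Fosl2, -0.59 to -0.04 for Jun, -0.91 to -0.43 for Junb, -0.60 to -0.12 for Jund, -0.85 to -0.14 for Atf3 and 0.0005 to 0.09 for Maff. Without FMR1-KO array 2, the values were -0.43 for Fos, -0.04 for Jun and -0.14 for Atf3, and without Control array 1 they were -0.90, -0.59 and -0.81. Without Control arrays 2 and 3, the only arrays high in Xist, Fos differed by -0.77, Fosb by -0.90 and Jun by -0.41. The count of genes called over the whole table ran from 0 to 1 when each array was left out, the 1 being Cnbd2 without Control array 5, and was 1 without the 3 arrays lowest in microglia markers, Tlcd1. With the replicate number as a block the differences cannot change, since each number occurs in both groups, but their errors can. The SE fell from 0.33 to 0.18 for Fos, from 0.41 to 0.19 for Fosb and from 0.34 to 0.24 for Junb, and rose from 0.10 to 0.11 for Fosl2. With the block the unadjusted p in limma was 0.0040 for Fos, 0.0072 for Fosb and 0.014 for Junb. It was 0.071 for Fosl2, and Jun, Jund, Atf3 and Maff were also above 0.05. In limma 2080 genes had an unadjusted p under 0.05 with the block, against 1334 without it. No call changed (limma adjusted p = 0.320 for Fos). The titles do not say whether arrays of the same number are paired, and this was not tested. Correlations of deviations were 0.53, -0.02, 0.19, 0.00 and 0.15 for numbers 1 to 5. Of the 5 FMR1-KO arrays, 1 was most like the Control array of its own number. Subtracting group means left 0 correlations past the threshold in both families.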
